A study of Mus musculus with 6 samples.

Results

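Neutrophils are the first blood leukocytes to enter injured liver, and 10 transcripts that mark them or call them in were followed here in livers of mice labelled by the genotype of the corepressor NcoR1. The genes were S100a8, S100a9, Csf3r, Cxcr2, Retnlg, Il1r2, Lcn2, Mmp9, Cxcl1 and Cxcl2, matched by gene symbol, and all 10 were found among 22599 symbols. They were picked with measured values in view, in part because S100a8, S100a9 and Cxcl1 varied between libraries of one genotype, so that spread is described below without a test. The data are bulk RNA sequencing of mouse liver in 2 groups of 3 libraries. Flox libraries came from NcoR1fl/fl mice, which the genotype label calls WT, and NcoR1ΔHep libraries from mice whose genotype label reads knockdown NcoR1. Both groups carry 0 h of ischemia-reperfusion in their titles and liver ischemia-reperfusion as treatment, and the labels do not say what surgery a 0 h liver received. Age, sex, strain, the driver of the deletion and whether each library is a separate mouse are not given in the labels, so p-values measure only the spread between these libraries, which may be technical. No library was a repeat run of another of its group, since their counts differed by a chi-square per degree of freedom of 104 to 440.

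Neutrophils store the calcium-binding proteins S100A8 and S100A9 in their cytosol as a heterodimer, calprotectin, which feeds inflammation through TLR4 once released. They leave the marrow and reach tissue along gradients of ELR-type CXC chemokines such as CXCL1 and CXCL2, which act on the receptor CXCR2, while G-CSF and its receptor CSF3R sustain their production and survival. In liver, hepatocytes and the resident macrophages (Kupffer cells) can secrete these chemokines, and hepatocytes are a main source of lipocalin-2 (Lcn2) in the acute-phase response, so not every transcript in this set has to come from a neutrophil. In bulk tissue, fewer cells of a type and less RNA per cell cannot be told apart.

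Libraries held 36975231 to 38470468 counts and 16620 to 17770 genes with a count. Ncor1 was at 6.78, 6.70 and 7.72 FPKM in flox 1 to 3 and at 5.34, 6.63 and 4.93 FPKM in NcoR1ΔHep 1 to 3 (FPKM scales counts by transcript length and library total). The groups did not overlap, but the log2 fold change was only -0.31 (SE 0.21, edgeR adjusted p = 0.931), and bulk liver also holds cells other than hepatocytes. NcoR1ΔHep 1 stood apart from the other libraries, with 17138 counts of the X-inactivation transcript Xist against 6 to 18, and 20 counts over 4 Y-linked genes against at least 4174. These counts are of the female type in NcoR1ΔHep 1 and of the male type in the others, so sex was mixed within the NcoR1ΔHep group. Values without that library are given for the tested members and their median, and not for the other gene lists. A part of sex in the differences was not tested.

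No member differed between the genotypes by the test used, and none had groups that did not overlap. Only Lcn2 and Cxcl1 were well covered: they gave 13708 of the 15098 reads of the 10 genes (90.8%). Both were high in the same pair of libraries, 1 of each genotype, flox 3 and NcoR1ΔHep 2. Of the members other than Lcn2 and Cxcl1, only S100a8 and S100a9 exceeded the 1.11 FPKM that Retnlg reached in flox 3.

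**Figure D1:**
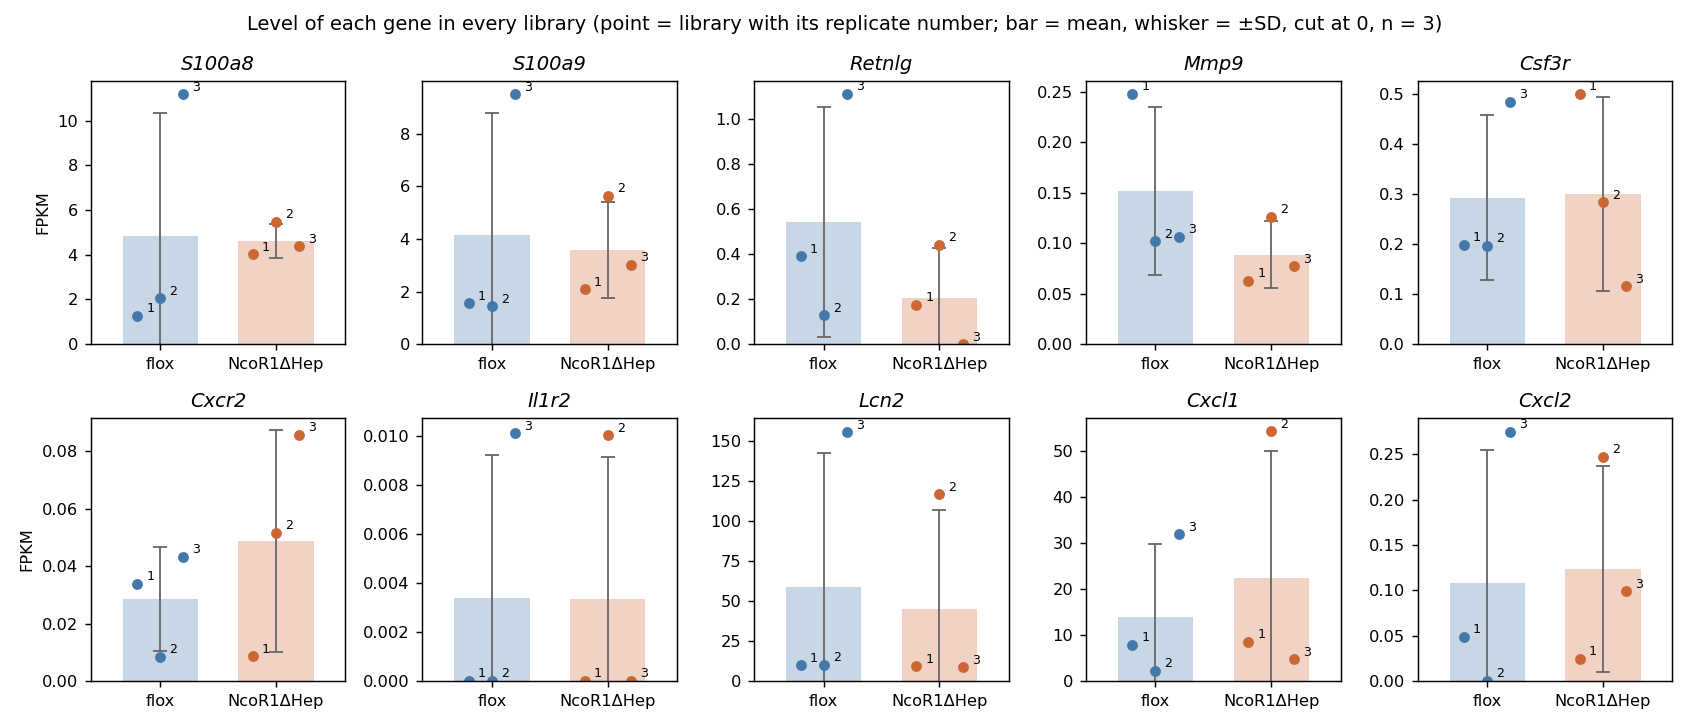
FPKM of each of the 10 genes (y axis, linear from 0, own scale per gene) in the 3 flox (blue) and 3 NcoR1ΔHep (orange) libraries. Points are libraries with their replicate number, bars the means and whiskers the SD (cut at 0). Lcn2 reached 155 FPKM in flox 3 and 117 FPKM in NcoR1ΔHep 2 and stayed under 10 FPKM in the other libraries, and in every panel the genotypes overlap.

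Flox 1 to 3 had 7.83, 2.20 and 31.9 FPKM of the chemokine Cxcl1. The NcoR1ΔHep livers 1 to 3 had 8.49, 54.3 and 4.66 FPKM. The highest library of each genotype stood well above its companions, by 14.5 times the lowest in flox and 11.6 times in NcoR1ΔHep, and the group ranges covered each other. The flox mean was 13.98 ± 15.8 FPKM and the NcoR1ΔHep mean 22.5 ± 27.6 FPKM (SD over 3 libraries per genotype). By edgeR the log2 fold change of NcoR1ΔHep over flox was 0.67 (SE 1.06, 95% interval -1.77 to 3.12, adjusted p = 0.951). Without NcoR1ΔHep 2 it was -1.09, without flox 3 it was 2.23 and without NcoR1ΔHep 1 it was 1.10.

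Its neighbour Cxcl2, which encodes another ELR chemokine and CXCR2 ligand, was barely present. It had 2, 0 and 11 counts in flox 1 to 3 and 1, 10 and 4 counts in NcoR1ΔHep 1 to 3. The 0 in flox 2 allows up to 3 counts, or 0.0720 FPKM. The highest libraries were again flox 3 (0.275 FPKM) and NcoR1ΔHep 2 (0.247 FPKM), with exact Poisson 95% intervals of 5.49 to 19.7 and 4.80 to 18.4 counts. NcoR1ΔHep 3, with 4 counts (1.09 to 10.2), could not be told from either at this depth. Per length, the level of Cxcl1 in FPKM was 116 times that of Cxcl2 in flox 3, 219 times in NcoR1ΔHep 2 and 47.1 times in NcoR1ΔHep 3, the libraries with more than 3 Cxcl2 counts. The sequences of these genes are alike, and how reads shared between them were assigned is not given in the sources used here.

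The bases just before the start of Cxcl1 and Cxcl2 are shown because these chemokine genes lie side by side on mouse chromosome 5. Both ranked highest in the same libraries, at levels far apart, though few counts set the rank of Cxcl2. Lcn2, on chromosome 2, is shown with them because it had the same highest libraries and the most counts of the members (9813). Other members, S100a8 and S100a9 among them, shared these highest libraries by rank, and their bases are not printed. The sequences are RefSeq, GRCm38.p6, in the direction of transcription, and end 1 base before the annotated start, so they lie outside the transcript. Capitals mark matches, on either strand, to GGG, any 2 bases and TTTCC, one spelling of the kappaB element that NF-kB dimers bind. They are Cxcl1 (chr5:90891105-90891244, plus strand), Cxcl2 (chr5:90903759-90903898, plus strand) and Lcn2 (chr2:32387740-32387879, minus strand).
Cxcl1: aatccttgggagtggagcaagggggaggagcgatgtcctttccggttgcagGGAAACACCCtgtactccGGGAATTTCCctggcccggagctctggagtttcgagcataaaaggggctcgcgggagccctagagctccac
Cxcl2: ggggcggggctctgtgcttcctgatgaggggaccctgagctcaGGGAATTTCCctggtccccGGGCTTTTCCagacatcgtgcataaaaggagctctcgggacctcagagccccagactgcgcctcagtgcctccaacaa
Lcn2: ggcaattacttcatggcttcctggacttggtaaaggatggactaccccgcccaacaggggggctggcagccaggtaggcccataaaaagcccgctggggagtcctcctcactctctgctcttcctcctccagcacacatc

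Each chemokine window held 2 matches, which did not overlap. Cxcl1 has GGGAATTTCC on the transcribed direction's strand, 71 to 62 bases before the start, and GGGTGTTTCC on the opposite strand at 89 to 80. Cxcl2 has the same GGGAATTTCC at 97 to 88 bases before the start and GGGCTTTTCC at 78 to 69. Of 32851 RefSeq promoters, 1.41% held at least 1 match in the 250 bases before the start. Among the 9 members with a promoter sequence, only these 2 genes had one. TTGCNNAA, a C/EBP-type motif (9.56% of promoters), matched once each in S100a9, Retnlg and Lcn2, farther upstream than the bases printed, and TATAAA (12.4%) matched only in S100a8, 30 to 25 bases before the start. A match describes letters and not binding, and the windows without one, Lcn2 among them, say nothing about NF-kB at those genes.

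Lcn2 encodes an iron-siderophore-binding protein found in the secondary granules of neutrophils and secreted by stimulated hepatocytes. It was at 9.85, 9.96 and 155 FPKM in flox 1 to 3. The NcoR1ΔHep libraries had 9.17, 117 and 8.48 FPKM. The libraries formed 2 levels: 4 lay between 8.48 and 9.96 FPKM, and the lower of the high pair was 11.7 times the third library. The ratio of highest to lowest was 15.8 in flox and 13.7 in NcoR1ΔHep. The edgeR log2 fold change between the genotypes was -0.41 (SE 1.30, 95% interval -3.40 to 2.58, adjusted p = 0.980). It was 2.18 without flox 3, -2.72 without NcoR1ΔHep 2 and 0.10 without NcoR1ΔHep 1.

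S100a8, the smaller calprotectin subunit, was at 1.28, 2.06 and 11.2 FPKM in flox 1 to 3, from 19, 31 and 162 counts. NcoR1ΔHep 1 to 3 had 4.02, 5.47 and 4.37 FPKM. The flox libraries therefore held both the lowest values and the highest, with the 3 NcoR1ΔHep libraries between them. The ratio of highest to lowest was 8.76 in flox and 1.36 in NcoR1ΔHep. Means were 4.84 ± 5.50 and 4.62 ± 0.757 FPKM, and the log2 fold change was -0.07 (SE 0.76, edgeR adjusted p = 0.992). Without flox 3 it was 1.48, and without NcoR1ΔHep 1 it was 0.10. Flox 3 set the spread for which the gene was in part picked, so no p-value is given for the fit without it.

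S100a9, its partner in the heterodimer and its neighbour on chromosome 3, was at 1.56, 1.44 and 9.50 FPKM in flox 1 to 3. It was at 2.09, 5.63 and 3.02 FPKM in NcoR1ΔHep 1 to 3. The order of the libraries was that of S100a8 except that flox 1 and flox 2 changed places. The exact Poisson 95% intervals of flox 1 and flox 2 overlapped for S100a9 (21.1 to 44.0 and 19.4 to 41.6 counts). For S100a8 those of NcoR1ΔHep 1 to 3 also overlapped (44.9 to 76.1, 63.4 to 99.6 and 49.3 to 81.7 counts). The level of S100a8 per length was 0.819 to 1.92 times that of S100a9, so the pair stayed near parity while each varied several-fold. Between the genotypes the log2 fold change was -0.21 (SE 0.78, edgeR adjusted p = 0.983), or 1.29 without flox 3, -0.67 without NcoR1ΔHep 2 and 0.12 without NcoR1ΔHep 1.

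Retnlg, a resistin-like secreted protein of mature mouse neutrophils, had 9, 3 and 25 counts in flox 1 to 3 and 4, 10 and 0 counts in NcoR1ΔHep 1 to 3. Its highest libraries were flox 3 (1.11 FPKM) and NcoR1ΔHep 2 (0.441 FPKM), although flox 1 at 0.390 FPKM lay within the counting error of the latter. The 0 in NcoR1ΔHep 3 allows up to 3 counts, or 0.132 FPKM.

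Mmp9, the gelatinase of tertiary granules, did not share this order. It was at 0.248, 0.102 and 0.106 FPKM in flox 1 to 3 and at 0.0629, 0.126 and 0.0772 FPKM in NcoR1ΔHep 1 to 3. Flox 1 was highest, with 36 counts against 9 to 18 in the other libraries, and its exact Poisson 95% interval (25.2 to 49.8 counts) overlapped only that of NcoR1ΔHep 2 (10.7 to 28.4). The log2 fold change was -0.71 (SE 0.54, 95% interval -1.96 to 0.54, edgeR adjusted p = 0.931), with an unadjusted p of 0.225 that was the smallest of the tested members, and it was -0.26 without flox 1 and -0.47 without NcoR1ΔHep 1. Flox 1 also had the highest summed level of sinusoidal endothelial markers, 197 FPKM against 51.0 to 121 FPKM elsewhere, and all 12 of those markers had a log2 fold change below 0 (median -0.69, 0 called). The part of other cell types in the Mmp9 value was not tested.

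The receptors were all at or under 0.501 FPKM in every library. Csf3r, the G-CSF receptor, was at 0.199, 0.196 and 0.485 FPKM in flox 1 to 3 and at 0.501, 0.283 and 0.116 FPKM in NcoR1ΔHep 1 to 3. Here NcoR1ΔHep 1 was highest, level with flox 3, and NcoR1ΔHep 3 lowest, so Csf3r shared only flox 3 with the S100 genes. Its log2 fold change was -0.0019 (SE 0.59, 95% interval -1.37 to 1.36, edgeR adjusted p = 0.999). It was -0.50 without NcoR1ΔHep 1, 0.58 without flox 3 and 0.34 without NcoR1ΔHep 3.

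Cxcr2, the receptor for CXCL1 and CXCL2, had 4, 1 and 5 counts in flox 1 to 3 and 1, 6 and 10 counts in NcoR1ΔHep 1 to 3. Il1r2, the decoy receptor for interleukin-1 carried by neutrophils, had 1 count in flox 3, 1 in NcoR1ΔHep 2 and none elsewhere, where up to 3 counts (0.0291 to 0.0300 FPKM) are allowed. Over the 6 libraries these receptors summed to 27 and 2 counts. A difference in either was not detectable at this depth.

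By median FPKM over the 6 libraries the order was Lcn2 (9.91), Cxcl1 (8.16), S100a8 (4.20), S100a9 (2.55), Retnlg (0.283), Csf3r (0.241), Mmp9 (0.104), Cxcl2 (0.0738), Cxcr2 (0.0385) and Il1r2 (0). Neighbours in this order overlapped across libraries, with 1 clear step between S100a9, at 1.44 FPKM or more in every library, and Retnlg, at most 1.11 FPKM.

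Of the 10 genes, 6 passed the count filter and were tested (S100a8, S100a9, Csf3r, Mmp9, Lcn2 and Cxcl1). By edgeR 0 of 6 had an adjusted p under 0.05, where 0.00% of all 13205 tested genes did. At an unadjusted p under 0.05 it was again 0 of 6, against 3.35% of all tested genes. Their median log2 fold change was -0.14, with 1 above 0 and 5 below, beside a median of 0.03 over all tested genes, of which 53.5% were above 0. That median was 1.38 without flox 3 and 0.10 without NcoR1ΔHep 1. DESeq2 called 0 of the 9 members to which it gave an adjusted p, beside 0.0246% of all genes (5 of 20289), and 0 had an unadjusted p under 0.05; it gave none for Lcn2. Without a count filter edgeR gave all 10 members a p, and 0 were under 0.05 unadjusted, beside 3.40% of 20338 genes. There Cxcr2 had a log2 fold change of 0.87 (SE 1.05), Retnlg -1.37 (SE 1.04), Cxcl2 0.25 (SE 1.21) and Il1r2 0.02 (SE 1.65). The groups did not overlap in 0 of the 6 tested members, against 7.56% of all tested genes. The 95% intervals of Lcn2 and Cxcl1 are wide, so the data do not show that the genotypes were alike.

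**Figure D2:**
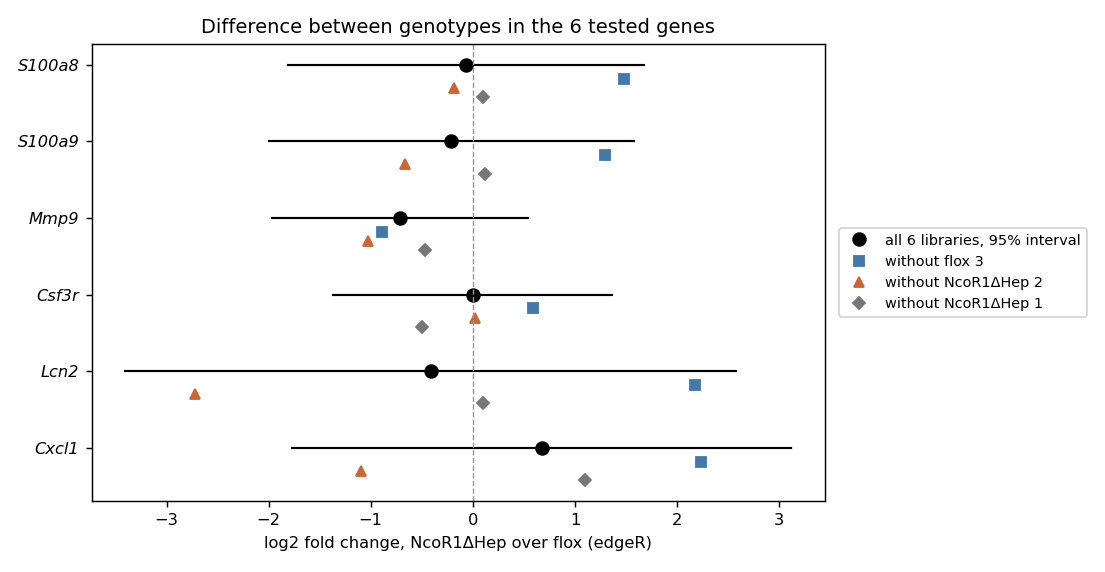
Log2 fold change of NcoR1ΔHep over flox by edgeR (x axis) for the 6 tested genes (y axis). Black points and lines are the values and 95% intervals over all 6 libraries, and coloured symbols are the values with 1 library left out. Every interval spans 0, and leaving out flox 3 or NcoR1ΔHep 2 moves Lcn2 to 2.18 or -2.72.

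The label of the set was checked against other neutrophil genes, from lists chosen for this report. Ly6g, the standard surface marker of mouse neutrophils, had 1 count in the 6 libraries together, as did Cxcr1. Of the primary granule proteases, Elane had 14 counts in all and Ctsg 4, whereas Prtn3 had 420. The granule transcripts Ltf, Camp and Cd177 had 47, 31 and 5 counts in total, and Ngp had 110. Csf3, which encodes G-CSF, and the CXCR2 ligand Cxcl3 had none. The defining markers were thus at or near 0 for Ly6g and Cxcr1 but not for Prtn3 and Ngp, and the members are read as transcripts of whole liver.

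Of 26 other granule and effector genes, 24 were in the table and 8 were tested: 0 were called, and 1 was lower at an unadjusted p under 0.05, Chil3, with flox at 8.23 ± 3.15 and NcoR1ΔHep at 4.67 ± 1.36 FPKM. Their median log2 fold change was -0.10. Prtn3, the gene of proteinase 3, was at 1.06, 0.348 and 4.20 FPKM in flox 1 to 3 and at 0.577, 4.36 and 1.05 FPKM in NcoR1ΔHep 1 to 3, the same high pair as Lcn2. Ngp, a granule protein of the cathelicidin type, had 1, 13 and 47 counts against 10, 29 and 10, with that pair highest again. Prtn3 and Ngp were chosen after their values were seen. The 16 granule genes too low to test summed to 39, 12 and 98 counts in flox 1 to 3 and 57, 47 and 19 counts in NcoR1ΔHep 1 to 3, so flox 3 was highest but NcoR1ΔHep 2 was not second. The most abundant genes of the list were Wfdc21, at 384 to 735 FPKM, and the lysozyme gene Lyz2, at 43.1 to 94.4 FPKM. Macrophages also make lysozyme. These levels too are read as those of whole liver, and which cells gave them was not tested.

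Receptor and signalling genes of neutrophils numbered 43 in the table, of which 32 were tested. None was called, and 0 were higher and 2 lower at an unadjusted p under 0.05, with a median log2 fold change of -0.27. Cybb, the catalytic subunit of the phagocyte NADPH oxidase, averaged 4.69 ± 1.55 FPKM over flox against 2.92 ± 0.636 over NcoR1ΔHep (log2 fold change -0.64, SE 0.27), and Nlrp12 at 6.91 ± 1.67 and 3.83 ± 1.33 FPKM (-0.79, SE 0.34); both had an edgeR adjusted p of 0.931. Msrb1 (186 to 235 FPKM) and G0s2 (44.5 to 273 FPKM) were the most abundant genes of the list. They had 61555 and 30871 counts in all, against 1 for Ly6g of the same list. The list's levels are therefore read as those of whole liver, and which cells gave them was not tested.

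Among 23 other chemoattractants and cytokines in the table, 15 were tested and 0 called, with a median log2 fold change of -0.11. Ccl6 was the only one with an unadjusted p under 0.05, with means of 11.6 ± 2.71 (flox) and 7.74 ± 1.88 FPKM (NcoR1ΔHep). The complement genes C3 and Hc, sources of the anaphylatoxins C3a and C5a, were the most abundant, C3 at 958 to 1525 FPKM and Hc at 77.7 to 190 FPKM. Interleukin-1 beta (Il1b), which induces both Cxcl1 and Lcn2, had 65, 33 and 204 counts in flox 1 to 3 and 84, 107 and 52 counts in NcoR1ΔHep 1 to 3, chosen after its values were seen. Flox 3 and NcoR1ΔHep 2 were its highest libraries too, the latter not far above NcoR1ΔHep 1. Il1r1, the signalling receptor for interleukin-1, was at 3.84, 3.76 and 16.2 FPKM in flox 1 to 3 and at 6.27, 10.2 and 2.80 FPKM in NcoR1ΔHep 1 to 3, with the same pair on top. Of 13 tested interleukin-1 family and partner genes, 0 were called and Il18 alone had an unadjusted p under 0.05. Flox 3 and NcoR1ΔHep 2 were the highest pair in only 2 of these 13 (15.4%). A part of interleukin-1 in the members' values was not tested.

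For the other gene groups around the members, no gene was called. Of 12 tested adhesion molecules that leukocytes use on vessels, 1 was lower at an unadjusted p under 0.05 (Pecam1, 5.55 ± 3.62 and 2.72 ± 0.937 FPKM), with a median log2 fold change of -0.20. Of 9 metalloproteinases and their inhibitors, 1 was lower (Mmp12, the macrophage elastase, 0.502 ± 0.137 and 0.203 ± 0.0391 FPKM), median 0.02. All 7 tested genes of the wider S100 family had a log2 fold change above 0 (median 0.27), with none under 0.05 unadjusted and in all 7 NcoR1ΔHep 1 was the highest or second library. S100a10, the most abundant, was at 217 FPKM there and 109 to 151 FPKM elsewhere. The 6 tested receptors and co-receptors of S100 proteins had a median of -0.14 and the 16 NF-kB subunits, inhibitors and feedback genes one of -0.03, with none under 0.05 unadjusted. Nfkbia, the inhibitor gene that NF-kB itself switches on, was at 14.5, 13.7 and 28.4 FPKM in flox 1 to 3 and at 30.5, 32.7 and 14.3 FPKM in NcoR1ΔHep 1 to 3, so NcoR1ΔHep 1 had as high a level as the pair in which Cxcl1 was high.

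The pair of libraries that was highest in Lcn2, Cxcl1, S100a8 and S100a9 was picked from these values, and its frequency over genes is given as a description only. By rank alone, flox 3 and NcoR1ΔHep 2 were the highest libraries in 4 of the 6 tested members and in 980 of 13205 tested genes (7.42%). These ranks take no account of counting error. For S100a8, NcoR1ΔHep 2 was only 1.25 times the third library, NcoR1ΔHep 3. Their exact Poisson 95% intervals overlapped (63.4 to 99.6 and 49.3 to 81.7 counts), so its second place there is not secure. In the 31 acute-phase genes, mostly secreted by hepatocytes, flox 3 and NcoR1ΔHep 2 were highest in 18 (58.1%). In the 12 Kupffer cell markers they were highest in 6 (50.0%). Shares by rank were lower in the other neutrophil lists. The pair was highest in 2 of 8 tested granule genes (25.0%) and 5 of 32 receptor and signalling genes (15.6%). Among the other chemoattractants and cytokines it was 2 of 15 (13.3%). These shares count ranks, not the size of the gap between the lower of the pair and the third library. That gap was over 3-fold in 4 of the 31 acute-phase genes and in 0 of the 12 Kupffer cell markers. In the neutrophil lists it was over 3-fold in 1 of 8 granule genes (Prtn3). It was so in 0 of 32 receptor and signalling genes and 0 of 15 chemoattractants and cytokines. The summed acute-phase level was 22465, 16741 and 43320.5 FPKM in flox 1 to 3 and 16550, 38818 and 20277 FPKM in NcoR1ΔHep 1 to 3. A large part of it was Serpina1e, at 5024, 3067 and 10029 FPKM in flox 1 to 3. In NcoR1ΔHep 1 to 3 Serpina1e was at 216, 9189 and 5874 FPKM. The low sum in NcoR1ΔHep 1, the library with counts of the female type, thus rests in part on this gene. By median log2 fold change the list was at -0.19 between the genotypes, with 1 gene higher (Orm3, at 8.67 FPKM in NcoR1ΔHep 1 and 0.459 to 0.912 FPKM elsewhere) and 1 lower (Il6st, 17.7 ± 7.91 and 8.55 ± 0.741 FPKM) at an unadjusted p under 0.05 and 0 called.

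Summed Kupffer cell markers, 12 of 12 tested, ran from 207 to 327 FPKM in flox and from 137 to 351 FPKM in NcoR1ΔHep, with NcoR1ΔHep 2 and flox 3 highest at 351 and 327 FPKM and flox 1 next at 317 FPKM. Lcn2, Cxcl1 and Cxcl2 summed to 187 FPKM (flox 3) and 171 FPKM (NcoR1ΔHep 2), against 12.2 to 17.7 FPKM in the rest. The part of Kupffer cells in the members' values was not tested. Monocyte markers summed to 198 to 219 FPKM in flox and 135 to 173 FPKM in NcoR1ΔHep, most of it Fn1, which hepatocytes also make. T and NK cell markers summed to 3.21 to 4.55 and 2.26 to 5.33 FPKM, and B cell markers to 1.97 to 3.31 and 1.30 to 3.08 FPKM. Hepatocyte markers ran from 69047 to 70549 and from 65898 to 73489 FPKM. Erythroid genes, a sign of blood left in the tissue, summed to 335 to 480 and 287 to 307 FPKM, highest in flox 1. Cholangiocyte markers summed to 27.7 to 36.7 and 26.0 to 105 FPKM, highest in NcoR1ΔHep 2. Most of this was Spp1, at 99.0 FPKM in NcoR1ΔHep 2 and 21.0 to 33.7 FPKM elsewhere. Neither flox 3 nor NcoR1ΔHep 2 led the T and NK cell, B cell or erythroid lists. NcoR1ΔHep 1, where Csf3r was highest, led the T and NK cell list, and flox 1, where Mmp9 was highest, led the B cell and erythroid lists.

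**Figure D3:**
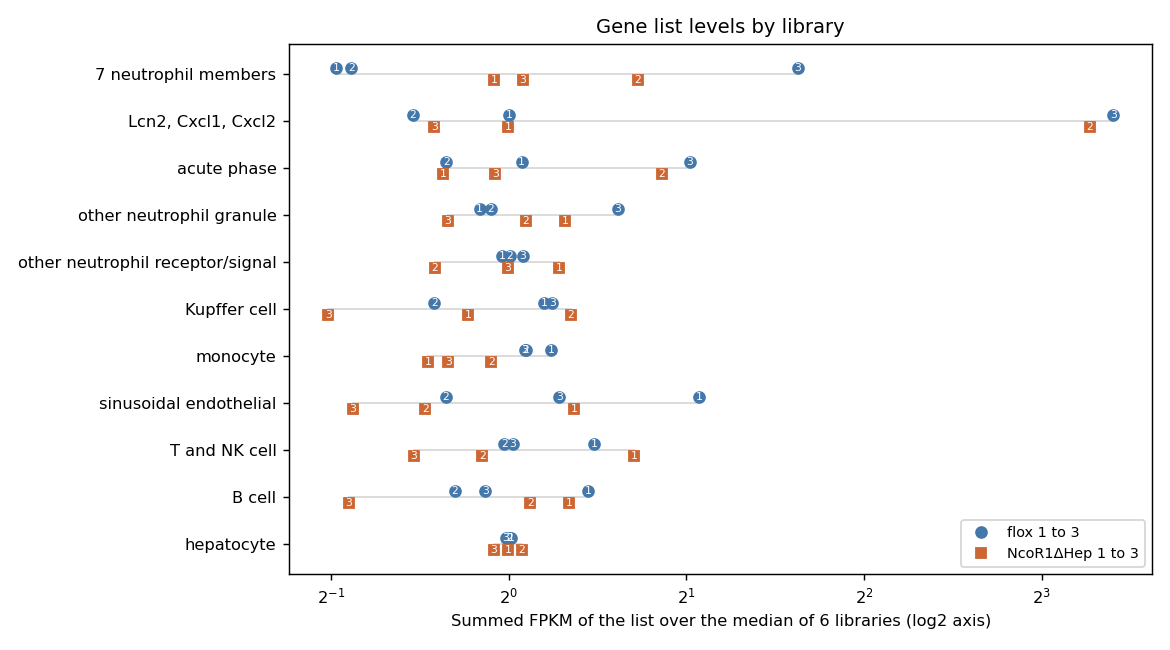
Summed FPKM of each gene list (rows) in the 6 libraries, divided by the median of the 6 (x axis, log2 scale), with circles for flox and squares for NcoR1ΔHep and the replicate number inside. Lcn2, Cxcl1 and Cxcl2 together place flox 3 and NcoR1ΔHep 2 far to the right (187 and 171 FPKM against 12.2 to 17.7). The sum of hepatocyte markers, of which Alb is the largest part, stays within 65898 to 73489 FPKM.

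Genes with a like pattern were taken by Pearson correlation of log2(CPM + 0.5) over the 6 libraries, as a measure of likeness without a test. Closest to Lcn2 were P2rx4 (r = 0.996), Lbp (0.996), Cfb (0.995) and Mrpl12 (0.991). Lbp, the acute-phase protein that hands lipopolysaccharide to CD14, was at 26.4, 24.2 and 54.0 FPKM in flox 1 to 3 and at 25.1, 48.8 and 23.6 FPKM in NcoR1ΔHep 1 to 3, and Cfb, complement factor B, spanned 348 to 615 FPKM. Both varied by far less than Lcn2, which r does not measure. Closest to Cxcl1 were Lrp10 (0.9995), Zfp324 (0.989), Myo10 (0.989), Prpf19 (0.987) and Ppia (0.986), and closest to S100a8 were Pxk (0.985), Gorasp1 (0.983), Lrig3 (0.982), Zbtb2 (0.981) and Cox5a (0.978). No neutrophil gene from the lists was among these genes, but only the closest were taken. Low-count genes such as Retnlg and Cxcr2 were not ranked, so their absence says nothing. Among the tested members, r was 0.94 for S100a8 with S100a9, 0.91 for Lcn2 with S100a9 and 0.90 for Lcn2 with Cxcl1. It was lower for S100a9 with Cxcl1 (0.81), S100a8 with Lcn2 (0.77) and S100a8 with Cxcl1 (0.66). Against S100a8, S100a9, Lcn2 and Cxcl1, Csf3r had r of 0.46 to 0.56 and Mmp9 of -0.50 to 0.06. The points are only 6 libraries, and r was ranked over all tested genes with a mean CPM of at least 1.

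**Figure D4:**
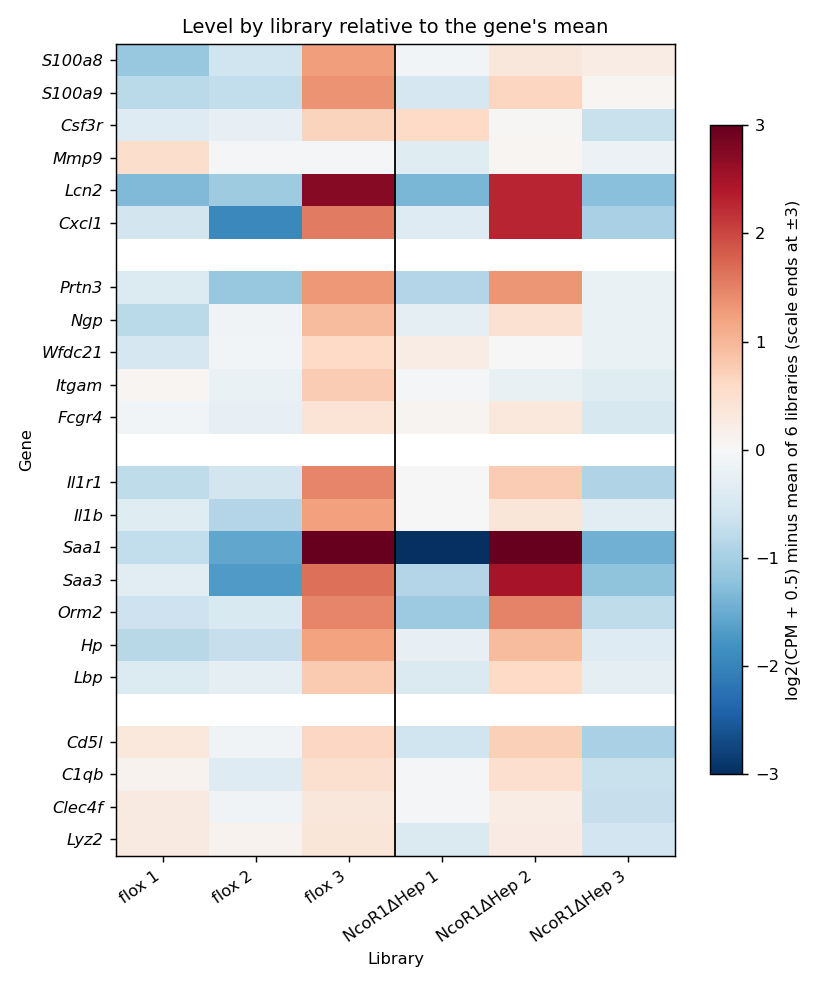
Level of the 6 tested members (top block) and of genes from the neutrophil, interleukin-1, acute-phase and macrophage lists, chosen after their values were seen, in each library (columns). Colour is log2(CPM + 0.5) minus the gene's mean over 6 libraries. Flox 3 and NcoR1ΔHep 2 are red for Lcn2, Cxcl1 and the acute-phase genes, whereas Csf3r is highest in NcoR1ΔHep 1 (0.501 FPKM) and Mmp9 in flox 1 (0.248 FPKM).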

How the data were processed

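The members and gene lists were chosen with earlier results of these data known. The authors deposited whole-number counts per gene symbol and FPKM for 6 liver libraries, 1 column each. Dividing count by FPKM and by the library's total count gave the same gene length in each library, so FPKM adds no information on depth. The submitters' processing notes name GRCm38, mm10 and hg38 with no role; the read mapper, the counter and how strand was handled are unstated there. Per the labels' protocols, RNA was taken with a Qiagen column kit and made into libraries with a SMARTER kit.

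Genes were filtered with filterByExpr (minimum count 10, minimum total 15), scaled by TMM factors (0.901 to 1.11) and compared by edgeR 4.0.16 (quasi-likelihood, two-sided, R 4.3.3), with Benjamini-Hochberg adjustment over all tested genes and a threshold of 0.05. The fit was tested on simulated data. Alternatives were DESeq2 1.42.0, RLE factors, total counts only, other filters, limma 3.58.1 on log2(FPKM + 1) or log2(FPKM + 0.1), a replicate block, and leaving out each library. Poisson intervals (95%) and floors of 3 counts cover counting error only. Named were the members, per list the 3 genes of highest mean FPKM and the 2 of smallest p (not all are printed), the 5 genes most like S100a8, Cxcl1 and Lcn2 (1 is not reported here), and genes said to be chosen after their values were seen; single marker genes given by their count are also of this kind. Of 22599 symbols, 21963 had a RefSeq row (GRCm38.p6), including all 10 members, 9 of them with a promoter sequence.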

Additional observations from a re-analysis of the deposited data

How the results depend on the processing

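Across the alternatives no member passed the threshold, and the count of genes past it was 0 by edgeR and limma under every setting and 5 by DESeq2. Directions were not stable. Leaving out each library in turn gave log2 fold changes of -0.51 to 1.48 for S100a8, -0.67 to 1.29 for S100a9, -0.50 to 0.58 for Csf3r, -2.72 to 2.18 for Lcn2, -1.09 to 2.23 for Cxcl1 and -1.03 to -0.26 for Mmp9, and a median over the tested members of -0.85 to 1.38. Limma turned S100a8 to 0.35 (pseudocount 1, with or without a filter) and 0.54 (pseudocount 0.1), and S100a9 to 0.11 and 0.22. Csf3r, at -0.0019 in the main test, was 1.48e-05 with DESeq2, 0.012 with RLE factors, 0.035 with total counts only, 0.0035 without a filter, 0.013 with CPM of at least 1 in 3 libraries and 0.0045 with limma without a filter. With its filter of at least 0.5 FPKM in 3 libraries limma had no value for Csf3r and Mmp9, which did not reach it. The cause of the changes of direction was not tested. With the replicate number as a block, 0 genes passed, and the values were 0.59 for S100a8, 0.26 for S100a9 and 0.0086 for Csf3r. Same-numbered libraries did not deviate together (correlations of 0.023, -0.37 and -0.51). Pairs of unlike number had -0.26 to 0.61, highest for flox 2 with NcoR1ΔHep 3 (0.61) and flox 3 with NcoR1ΔHep 2 (0.31). Deviations from a mean of 3 libraries depend on each other, so these values cannot show whether libraries share a day, litter or batch. Depth limits Cxcr2, Il1r2, Cxcl2 and Retnlg, with 2 to 51 counts in all.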

Other observations

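Among the 980 tested genes that were highest in flox 3 and NcoR1ΔHep 2, the gap between the lower of the pair and the third library was over 3-fold in 14. By that ratio the leading genes were Saa2 (23.5), Saa1 (16.2), Lcn2 (11.7), Prtn3 (3.98), Orm2 (3.85) and Cxcl1 (3.76). Saa1 and Saa2, serum amyloid A genes that can share reads, are induced in hepatocytes in the acute phase. Rgs1, a regulator of G-protein signalling that acts downstream of chemokine receptors in leukocytes, was at 0.468, 0.308 and 6.81 FPKM in flox 1 to 3 and at 1.90, 8.24 and 1.27 FPKM in NcoR1ΔHep 1 to 3. Pfkfb3, which makes the activator of phosphofructokinase, was at 6.50 FPKM in flox 3 and 5.18 FPKM in NcoR1ΔHep 2, the remaining livers having 0.429 to 1.52 FPKM. These genes were chosen after their values were seen, and no test was made.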
